A study of Rattus norvegicus and Mus musculus with 18 samples.

Results

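The ureteric bud programs of mouse and rat were set side by side over the genes that carry the same symbol in the mouse table and in at least 1 of the 3 rat tables. Of 19342 genes named in any of the 4 tables, 9820 met this rule, from 18193 named in mouse and 10969 named in rat. Expression passed the filter in both species for 6381 of them, in mouse alone for 1810, in rat alone for 516 and in neither for 1113. The mouse value is the mean of tip and stalk minus mesenchyme, and the rat value is whole bud minus mesenchyme on the same array design, both as log2 differences. Direction and rank of these differences were read across species and levels were not, because probe sets and array designs differ and a level in mouse cannot be set against a level in rat. The size of a difference entered only the calls, the rule for genes limited to 1 species and the test behind it, and that size also depends on the probe set.

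The embryonic kidney was dissected at E12.5 (days of embryonic development) in mouse, when the bud had 4 or more tips on a stalk, and at E13.5 in rat, when the bud was a T-shaped tubule. Tissues were freed after 10 min in trypsin and DNase. RNA came from pools of about 1000 bud tips, 350 stalks and 300 mesenchymes in mouse, and of about 1200 whole buds and 240 mesenchymes in rat. No genotype, strain or treatment is given in the sources used here. Each RNA pool was labelled from 1 ug of total RNA and measured on 2 arrays, and the rat pools were hybridised to 3 designs, called first, B and C here, which gives 6 mouse and 12 rat arrays. Errors and p-values therefore measure the spread between labelings of 1 pool. Species, stage, dissection, pool and array design cannot be told apart in any difference between the mouse and the rat values.

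The ureteric bud is an epithelial tube that grows from the nephric duct into the metanephric mesenchyme, branches, and forms the collecting ducts and ureter. The mesenchyme secretes GDNF, which binds the receptor kinase RET and its partner GFRA1 on the bud tip and drives branching, while Wnt ligands from the bud start nephron formation in the mesenchyme around the tips. Stromal cells, which express Foxd1, and vessel precursors lie in the same mesenchyme. Bud cells hold E-cadherin junctions and simple-epithelium keratins, whereas mesenchymal cells hold fibrillar collagens and vimentin.

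The tissue labels were checked against markers. The 8 bud tip markers tested in both species summed to an intensity of 10307 to 10544 in mouse tip, 3346 to 3406 in stalk and 1634 to 1738 in mesenchyme, and to 7642 to 8701 in rat bud against 1738 to 1787 in rat mesenchyme. The 21 stromal and ureteric mesenchyme genes summed to 5297 to 5707 in mouse tip but to 22417 to 22458 in stalk, close to the 21204 to 21654 of mouse mesenchyme. In rat they summed to 4156 to 4320 in bud and to 13666 to 13858 in mesenchyme. The sum in stalk was thus near that of mesenchyme, while the sum in rat bud was below it. The members differed in this: 12 of the 21 were above mesenchyme in stalk, among them Bmp4, and 9 were below it, among them Foxd1 and Crabp1, whereas 19 of 21 were below mesenchyme in tip. In these bulk samples, fewer cells of a type and less RNA per cell cannot be told apart. The second rat bud labelling also stood apart on all 3 designs, with a 3′ to 5′ GAPDH ratio of 4.43, 5.28 and 4.26 against 1.25 to 1.47 on the other rat arrays and 0.903 to 1.01 in mouse.

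A difference was called when its adjusted p (limma, Benjamini-Hochberg over all tested probe sets of the table) was under 0.05 and it reached 2-fold. Over all tested probe sets, the mouse table called 4.65% (2.88% higher in bud and 1.77% higher in mesenchyme). The first rat design called 5.78% (2.75% and 3.03%), design B 5.78% (3.05% and 2.73%) and design C 4.63% (2.22% and 2.41%). Among the genes tested in both species, mouse called 199 higher in bud, a background of 3.12%, and 123 higher in mesenchyme, a background of 1.93%. Rat called 199 higher in bud, a background of 3.12%, and 132 higher in mesenchyme, a background of 2.07%. The lists met in 88 bud genes, which are 44.2% of the mouse list and 44.2% of the rat list, and in 52 mesenchyme genes, which are 42.3% of the mouse list and 39.4% of the rat list. Direction was shared more widely than the call. Of the 199 mouse bud genes 169 had the same sign in rat (84.9%), where 55.1% of all genes tested in both were positive, and of the 123 mouse mesenchyme genes 109 had the same sign in rat (88.6%), where 44.9% of all were negative.

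**Figure D1:**
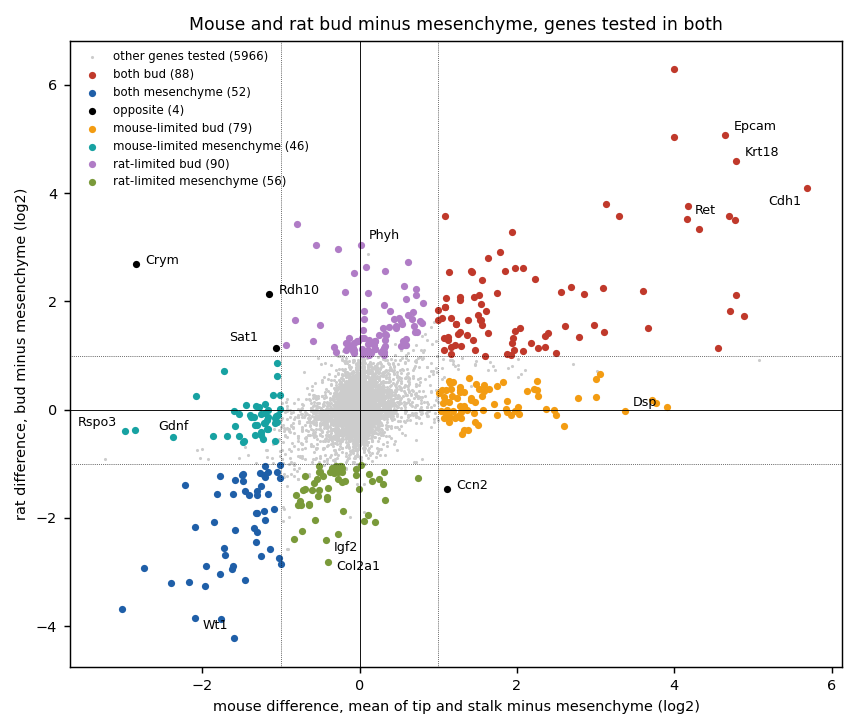
Each point is 1 of the 6381 genes tested in both species, with the mouse log2 difference (mean of tip and stalk minus mesenchyme) across and the rat log2 difference (bud minus mesenchyme) up; dotted lines mark 2-fold, and colours mark the classes named in the legend with their counts. The 88 shared bud genes fill the upper right, the 52 shared mesenchyme genes the lower left, and 4 genes lie past the lines in opposite corners.

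Over all 6381 genes the Spearman correlation of the mouse and rat differences was 0.35, and 58.4% had the same sign. This is a description across genes, which are not independent replicates and share their arrays. It was 0.31 to 0.36 when the mouse and rat arrays were taken 1 labelling at a time. The share with the same sign rose with the size of the mouse difference. It was seen in 54.9% of the 5575 genes with an absolute mouse difference under 0.5, in 79.3% of 484 between 0.5 and 1, in 84.9% of 245 between 1 and 2, and in 90.9% of the 77 at 2 or more. At the top of the order the species met most often. The 50 genes of highest mouse bud rank lay at a median rat percentile of 98.4, with 46 on the bud side in rat and 32 called there, and the 50 of highest rat bud rank lay at a median mouse percentile of 98.7, with 43 on the bud side and 34 called.

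The rat designs give a scale for these figures, since all 3 measured the same RNA pools with different probe sets. For genes present on 2 of them, the rat differences correlated at 0.34 between the first design and B (360 genes), 0.44 between the first and C (414 genes) and 0.31 between B and C (600 genes), with 58.6%, 60.4% and 61.7% of signs alike. For the 353 of the first set also tested in mouse, the rat designs correlated at 0.34 and mouse at 0.27 and 0.35 with each. For 397 genes of the first design and C the values were 0.44 against 0.22 and 0.37, and for 587 genes of B and C 0.31 against 0.24 and 0.25. The brightest and second brightest mouse probe set of a gene correlated at 0.76 over 4123 genes. The value between rat designs was the higher in all but 1 of these comparisons, and all were lower than that between probe sets of 1 mouse gene.

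The genes with the highest shared rank, defined as the lower of a gene's 2 percentiles, included epithelial adhesion, transcription factor and retinoid genes of the bud. Cdh1, which encodes E-cadherin, had an intensity of 1952 and 1938 in mouse tip, 1308 and 1360 in stalk, and 18.1 and 13.2 in mesenchyme. In rat it was 1746 and 1492 in bud and 86.9 and 73.2 in mesenchyme. Bud and mesenchyme arrays did not overlap in either species, and the log2 differences were 5.69 (SE 0.07) in mouse and 4.09 (SE 0.13) in rat. Epcam, an epithelial adhesion molecule, differed by 4.65 in mouse and 5.07 in rat, and Krt18, a keratin of simple epithelia, by 4.79 and 4.59. In mouse 1 of the 2 tested probe sets of Epcam was called. Mal2, an apical transport protein, and Esrp1, a splicing regulator of epithelia, differed by 4.69 and 4.77 in mouse and by 3.57 and 3.50 in rat.

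Ret, the receptor of GDNF, showed the tip bias that the whole rat bud cannot show. Its intensity was 1572 and 1490 in mouse tip, 298 and 309 in stalk and 19.8 and 27.4 in mesenchyme. In rat it was 1303 and 1890 in bud and 121 and 124 in mesenchyme. The differences were 4.16 (SE 0.09) in mouse and 3.52 (SE 0.19) in rat. Its rat value was 3.23 without the second bud labelling. Of the 8 tip markers, mouse called 7 higher in bud and rat called the same 7. Besides Ret they were Emx2 (4.17 and 3.76 in mouse and rat), Arg2 (3.13 and 3.80), Lhx1 (2.85 and 2.14), Wnt6 (1.28 and 2.02), the RET partner Gfra1 (1.28 and 1.44) and the feedback inhibitor Spry1 (1.10 and 2.06). Not every probe set of these genes was called. In rat Ret was called by 2 of 3 tested probe sets and Gfra1 by 1 of 2, and in mouse Wnt6 by 1 of 2. The medians of this list were 2.07 in mouse and 2.10 in rat, against -0.02 and 0.04 over all genes tested in both.

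Of 9 duct transcription factors tested, 5 were called higher in bud in mouse and 5 in rat, 4 of them in both, and 8 had the same sign. Gata3, which is needed for nephric duct growth, was at 548 and 567 in mouse tip, 267 and 274 in stalk and 26.3 and 24.5 in mesenchyme, and at 907 and 979 in rat bud and 61 and 67.8 in rat mesenchyme. The differences were 3.29 in mouse and 3.58 in rat, where 1 of its 2 tested probe sets was called. Tfap2a differed by 3.10 and 1.44. Mecom reached 2-fold in rat alone (0.86 and 1.28), and Elf3 in mouse alone (1.19 and 0.52). Pou3f3, a POU factor of the distal nephron, differed by 4.31 and 3.34.

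**Figure D2:**
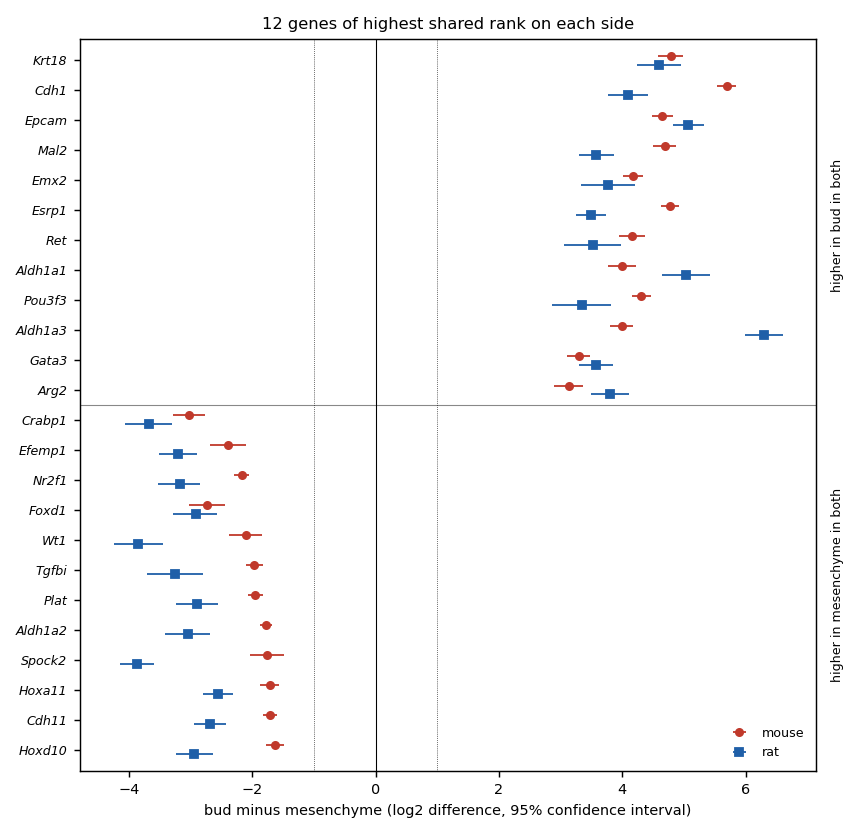
Log2 difference between bud and mesenchyme with its 95% confidence interval (labelings of 1 pool) for the 12 genes of highest shared rank on each side, mouse as circles and rat as squares, with dotted lines at 2-fold. All 24 genes lie beyond 2-fold on the same side in both species, as the rule that chose them requires. Cdh1, Epcam, Krt18 and Mal2 lead the bud genes and Crabp1 and Efemp1 the mesenchyme genes.

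The retinoid genes called in both species split by tissue in the same way, with 1 exception. Retinoic acid is made from retinol by a retinol dehydrogenase and then a retinaldehyde dehydrogenase. Aldh1a3 was at 872 and 875 in mouse tip, 342 and 339 in stalk and 21.7 and 17.5 in mesenchyme, and at 3826 and 4521 in rat bud and 38 and 36.5 in rat mesenchyme. Its differences were 3.99 and 6.29, and those of Aldh1a1 were 4.0 and 5.03. The third enzyme, Aldh1a2, ran the other way at -1.77 in mouse and -3.04 in rat, as did the binding protein Crabp1 at -3.02 and -3.68. Rdh10, the retinol dehydrogenase, was the exception. Of 15 retinoid genes tested, mouse called 2 higher in bud and 3 in mesenchyme, and rat called 3 and 3. The sign was alike in 9 of the 15, near the share of 58.4% over all genes tested in both.

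Junction genes were shared in part. Of 12 adherens junction, desmosome and adhesion genes, 7 were called higher in bud in mouse and 6 in rat, 5 in both, against a background of 3.12% in each species. The medians were 2.21 and 1.07. The sign was alike in 7 of the 12, near the share of 58.4% over all genes tested in both. Of 17 tight junction and polarity genes, 11 were called higher in bud in mouse and 8 in rat, 7 in both, with medians of 1.54 and 0.92. The sign was alike in 14 of the 17. None of these listed genes was called higher in mesenchyme, but the lists do not hold every cadherin and claudin gene. Outside them, Cdh2, Cdh11 and Cdh5 were called higher in mesenchyme in both species, and Cldn5 in mouse (-1.08 and -0.25). Cldn6 (4.79 and 2.12), Cldn7 (4.55 and 1.13), Pard6b (2.39 and 1.41), Crb3 (1.54 and 1.65) and Rab25 (1.36 and 1.38) were called higher in bud in both. Cldn4 had a mouse difference of 5.07, from 52.1 and 43.4 in mesenchyme to 2564 and 2711 in tip. Rat values were 349 and 312 in bud and 155 and 179 in mesenchyme, a difference of 0.92 that stayed under 2-fold. Membrane serine proteases and their inhibitors, which act on the epithelial surface, gave Prss8 (2.98 and 1.56), Spint2 (2.69 and 2.26) and St14 (2.23 and 2.41) in both buds, and Plat, the tissue plasminogen activator, in both mesenchymes (-1.95 and -2.89).

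Of 13 basement membrane genes, mouse called 5 higher in bud and 0 in mesenchyme, and rat called 4 and 3, with 4 shared in bud and 8 of 13 alike in sign. The shared genes were 3 laminin chains and Col18a1. Lama1 was at 759 and 747 in mouse tip, 296 and 283 in stalk and 85.7 and 83.9 in mesenchyme, and at 158 and 163 in rat bud and 73.6 and 56.9 in rat mesenchyme, differences of 2.27 and 1.13. Lama5 differed by 1.45 and 2.09, Lamc1 by 1.38 and 1.65 and the collagen gene Col18a1 by 1.47 and 1.10. On the first rat design other probe sets of Lama5 and Lamc1 were at 0.21 and 0.32 and were not called. The type IV collagen gene Col4a2 was at 0.16 in mouse and was called in rat mesenchyme at -1.31. The nidogens, which link laminin to type IV collagen, had negative values. Nid1 was at -0.92 in mouse and -1.41 in rat, and Nid2 at -0.33 and -1.17, with only the rat values called. In mouse tip alone the nidogens were at -1.94 and -1.41, and in stalk alone at 0.10 and 0.76.

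Promoters were looked at for 2 motifs, because epithelial genes such as the cadherin, claudin and keratin genes are known to be acted on by factors that bind these letters. The first was the E-box CAGGTG, read as CACCTG on the other strand, and the second the grainyhead core CCGGTT, read as AACCGG. By their letters, matches of the pair cannot overlap. The window ran from 250 bases before to 50 after the start in RefSeq (rat assembly GRCr8), with the first listed start taken where there were several, and 65 of the 88 shared bud genes and 33 of the 52 shared mesenchyme genes matched a promoter by symbol. An E-box stood in 23 of 65 bud promoters (35.4%) and in 6 of 33 mesenchyme promoters (18.2%), against 16.4% of 5360 promoters of genes tested in both species and 18.7% of all 27457 promoters. The grainyhead core stood in 8 of 65 (12.3%) and 3 of 33 (9.09%), against 12.7% and 7.21%. Krt18, Aldh1a3, Ret and Gata3, all of high shared rank, had a promoter with neither motif. The shared bud cadherin genes Cdh1, Cdh3 and Cdh16 had no promoter matched and could not be looked at. A match is a description of letters in a window, and base composition was not tested.

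The stretches below hold the E-box, in capitals, before the start of 5 of the 6 shared bud genes of highest shared rank that have one there, and span adhesion, protease inhibition, junction and keratin functions. Each has up to 30 bases on either side and reads 5′ to 3′ along the gene.
Epcam, chr6:12649808-12649873, minus strand: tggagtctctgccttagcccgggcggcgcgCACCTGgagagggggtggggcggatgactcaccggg
Spint2, chr1:93708124-93708189, minus strand: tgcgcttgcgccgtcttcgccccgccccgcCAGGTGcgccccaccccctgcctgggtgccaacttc
Wfdc2, chr3:173706324-173706389, plus strand: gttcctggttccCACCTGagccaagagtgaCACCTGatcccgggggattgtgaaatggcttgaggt
Cldn6, chr10:13215762-13215807, plus strand: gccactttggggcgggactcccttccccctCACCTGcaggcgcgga
Krt8, chr7:135010518-135010583, minus strand: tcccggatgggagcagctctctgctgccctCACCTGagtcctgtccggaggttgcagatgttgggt
Cldn7 held the most matches of the class, and its last 196 bases before the start are given for that reason.
Cldn7, chr10:55188474-55188669, plus strand: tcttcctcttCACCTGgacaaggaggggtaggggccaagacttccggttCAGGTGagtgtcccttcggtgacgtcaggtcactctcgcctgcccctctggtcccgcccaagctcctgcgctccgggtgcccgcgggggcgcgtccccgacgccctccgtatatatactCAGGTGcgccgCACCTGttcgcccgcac
The shared mesenchyme genes were not without the motif, as Wt1 and Aldh1a2, both among the 3 of highest shared rank that have one, show.
Wt1, chr3:112021918-112021983, plus strand: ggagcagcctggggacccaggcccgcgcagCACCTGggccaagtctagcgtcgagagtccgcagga
Aldh1a2, chr8:80758551-80758616, plus strand: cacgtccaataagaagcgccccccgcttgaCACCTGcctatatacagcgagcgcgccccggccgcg

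On the mesenchyme side, the genes of highest shared rank included transcription factors of stroma and nephron progenitors and a matrix gene, Tgfbi. Foxd1, the stromal factor, was at 99.6 and 62.1 in mouse tip, 889 and 832 in stalk and 1922 and 1889 in mesenchyme, and at 184 and 200 in rat bud and 1413 and 1718 in rat mesenchyme. Its differences were -2.74 (SE 0.13) and -2.92 (SE 0.15), with no overlap of bud and mesenchyme arrays in either species. Wt1, needed for mesenchyme survival, was at 632 and 612 in mouse mesenchyme against 71.5 to 214 in tip and stalk, and at 974 and 730 in rat mesenchyme against 39.3 and 48.4 in bud, differences of -2.10 and -3.85. The orphan receptor Nr2f1 differed by -2.17 and -3.18, and the homeobox genes Hoxa11 and Hoxd10 by -1.72 and -1.63 in mouse and by -2.55 and -2.94 in rat.

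Of 21 stromal and ureteric mesenchyme genes, mouse called 10 higher in mesenchyme and 2 higher in bud, and rat called 8 and 0, with 4 called in mesenchyme in both. All 21 had the same sign in both species. The 4 were Crabp1, Foxd1, Aldh1a2 and Foxc2 (-1.46 and -3.15). Of 22 fibrillar and stromal matrix genes, mouse called 7 higher in mesenchyme and 1 higher in bud and rat called 8 and 0, with 6 shared. The 6 were Tgfbi (-1.97 and -3.25), Col1a1 (-1.59 and -1.30), Col3a1 (-1.31 and -1.91), Vcan (-1.30 and -1.51), Mfap4 (-1.26 and -2.70) and Col5a2 (-1.14 and -2.58). Against stalk alone 3 of these were not lower than mesenchyme: Col1a1 was at 0.16, Col3a1 at 0.14 and Vcan at 0.51.

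Of 10 nephron progenitor genes, mouse called 6 higher in mesenchyme and rat 3, with 3 shared, namely Wt1, Hoxa11 and Uncx (-2.10 and -2.16). Rat called 2 of the list higher in bud, Crym and the ligand Bmp7. Bmp7 was at 571 and 630 in rat bud against 260 and 276 in mesenchyme, a difference of 1.12. In mouse it was at 441 and 526 in tip, 230 and 236 in stalk and 273 and 311 in mesenchyme, so that the tip differed by 0.70 and the mean of tip and stalk by 0.20. Other probe sets of Bmp7 were at 0.65 and 0.61 in mouse (adjusted p 0.00197 and 0.00172, limma) and at 0.36 in rat (adjusted p 0.336), so its size in each species rests on the probe set taken. Of 15 endothelial markers, 8 were called higher in mesenchyme in mouse and 3 in rat, 12 had the same sign, and the 3 were called in both, namely Ramp2, Emcn and Cdh5. They summed to 2126 to 2127 in mouse tip, 4534 to 4675 in stalk and 6608 to 6761 in mesenchyme, and to 2884 to 3057 in rat bud and 4283 to 4438 in rat mesenchyme. Of 8 macrophage and leukocyte markers mouse called 1 and rat 0 higher in mesenchyme, and of 3 erythroid genes mouse called 1 and rat 0. The macrophage list summed to 419 to 488 over mouse tip and stalk and 606 to 700 in mouse mesenchyme, and to 2390 to 2468 in rat bud and 2586 to 2746 in rat mesenchyme. The erythroid list summed to 359 to 382 over mouse tip and stalk and 522 to 582 in mesenchyme, and to 881 to 920 and 1129 to 1211 in rat. No listed marker was at 0 on any array, and the part of these cells in the mesenchyme differences was not tested.

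Tip and stalk were measured apart in mouse only, and the shared classes were not neutral to that split. Of the 88 shared bud genes 31 were called higher in tip than stalk (35.2%, where the background is 0.953% of probe sets) and 0 higher in stalk. The median difference of tip minus stalk in this class was 0.86. Against mesenchyme, 85 of the 88 were called higher in tip (background 3.9%) and 68 in stalk (background 2.35%). Of the 52 shared mesenchyme genes 42 were called higher in stalk than tip (80.8%, background 3.64%) and 0 higher in tip, with a median of -1.90. Because tip, stalk and bud values share mouse arrays, these counts describe the class and are not a separate test of it. Against mesenchyme, 52 of the 52 were called lower in tip (background 4.26%) but 11 of 52 lower in stalk (background 0.426%).

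Opposite calls were rare, at 4 genes. The test of the difference between species, which sets the mouse and rat values against their combined error, called 1059 of the 6381 genes at an adjusted p under 0.05, a background of 16.6%, and 555 of these (8.7% of all) had opposite signs. With the labelling number as a replicate block it was 876. That count of 555 fell to 139 and 153 without the first and second rat mesenchyme labelling and rose to 1128 without the first rat bud labelling. The 4 genes are those where both species passed 2-fold on opposite sides, and they were 2 without the second rat mesenchyme labelling.

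Crym, which encodes a thyroid hormone binding protein, was furthest apart. Its intensity was 46.6 and 34.4 in mouse tip, 146 and 125 in stalk and 631 and 661 in mesenchyme. The rat arrays gave 1291 and 864 in bud and 169 and 133 in mesenchyme. The differences were -2.85 (SE 0.12) and 2.69 (SE 0.23), and the rat value was 2.96 without the second bud labelling. Mouse mesenchyme and rat bud were each the high tissue, with no overlap between tissues in either species. One probe set was tested for Crym in each species.

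Rdh10, which makes retinaldehyde from retinol, was at 835 and 810 in mouse tip, 990 and 1003 in stalk and 2022 and 2034 in mesenchyme, and at 1513 and 1600 in rat bud and 362 and 327 in rat mesenchyme. The differences were -1.15 (SE 0.04) and 2.13 (SE 0.12). Both mouse probe sets gave this direction (-1.15 and -1.14), while the 4 rat probe sets gave 2.13, -0.10, 1.66 and 0.57. Ccn2, a matrix-associated growth factor also known as CTGF, was higher in mouse bud, with 256, 252, 213 and 183 in tip and stalk against 104 and 86 in mesenchyme, and lower in rat bud, with 80.6 and 96.2 against 285 and 256, differences of 1.11 and -1.46. Sat1, a polyamine acetyltransferase, differed by -1.06 in mouse and 1.14 in rat.

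**Figure D3:**
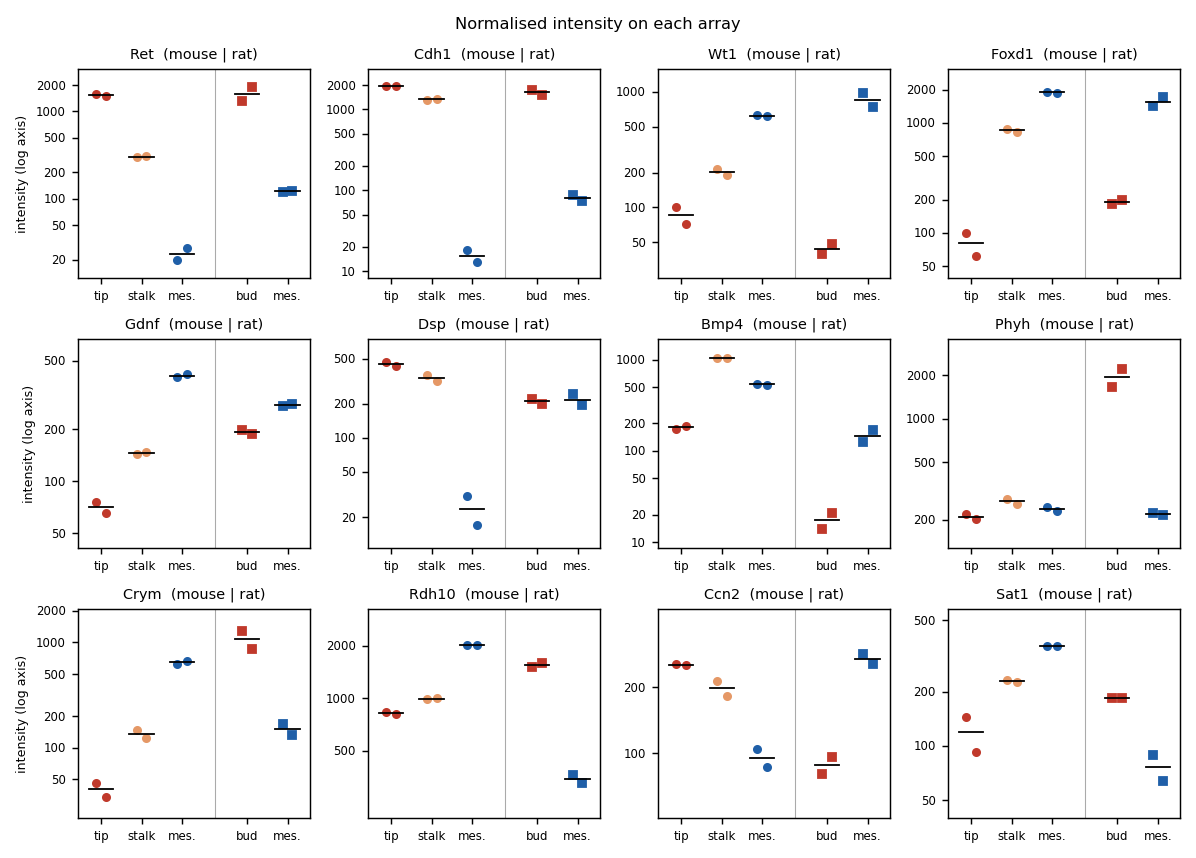
Normalised intensity (log axis) on each array for 12 genes, with tip, stalk and mesenchyme of mouse as circles left of the grey line and bud and mesenchyme of rat as squares right of it; points are the 2 labelings of a pool and bars their mean, and levels are not comparable across the line. Ret and Cdh1 are high in the bud and Wt1 and Foxd1 in the mesenchyme of both species, Crym, Rdh10, Ccn2 and Sat1 change sides, and Bmp4 in mouse is lowest in tip and highest in stalk.

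A gene was taken as limited to 1 species when it was called there, when the 95% confidence interval in the other species stayed short of 2-fold in that direction, and when the difference between species passed its own test. Mouse-limited genes numbered 79 on the bud side and 46 on the mesenchyme side, and rat-limited genes 90 and 56. The remainder, 31 mouse and 18 rat bud genes and 22 mouse and 23 rat mesenchyme genes, could not be placed. The mouse-limited classes leaned on genes of low signal. With the filter at the 75th percentile, 21 of the 79 bud genes and 17 of the 46 mesenchyme genes kept the class. Of the shared genes 64 of 88 and 39 of 52 did, and of the rat-limited genes 57 of 90 and 42 of 56. The rat-limited counts depend on single labelings. Without the first rat bud labelling they were 142 and 121. Without the first rat mesenchyme labelling they were 55 and 28, and the mouse-limited mesenchyme count was 29, and without the second the rat-limited mesenchyme count was 25.

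The mouse-limited bud genes were led by Tmem30b, a subunit of lipid flippases, with 3.91 in mouse and 0.04 in rat. Erbb3, a neuregulin receptor, was at 1203 and 1233 in mouse tip, 518 and 579 in stalk and 41 and 54.6 in mesenchyme. The rat arrays were flat, at 127 and 128 in bud and 98 and 126 in mesenchyme. These values are close to the rat table medians of 111 to 118 that set the filter. At this signal a flat value and a lack of detection cannot be told apart. The differences were 3.72 and 0.17, and a second rat probe set gave 0.27. Its second mouse probe set gave 0.74. Tbx3 (2.78 and 0.22) and Tbx2 (2.13 and 0.34), T-box repressors from the stromal and ureteric mesenchyme list, were both on the bud side in mouse. Others in this class were the small protein gene Plac8 (3.77 and 0.12), the tight junction gene Ocln (3.01 and 0.56), the keratin Krt19 (1.25 and -0.11), the splicing regulator Esrp2 (1.09 and 0.16), the sodium channel subunit Scnn1b (1.45 and -0.07) and the cell cycle inhibitor Cdkn1a (1.75 and -0.09).

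For part of this class another rat probe set carried the call. Of the 79 genes 26 had another tested rat probe set, and in 10 of them (Anxa1, Chchd10, Cxcl14, Dsp, Fgfr2, Kif12, Lrba, Plpp2, Ptpn3 and Slc8a1) it was called higher in rat bud as well. Dsp, the desmosomal plaque protein desmoplakin, had rat probe sets at -0.03 and 3.32 on the same design. Kif12, a kinesin, had 0.24, 0.59 and 1.41, and the phosphatase Ptpn3 had 0.65, 1.90 and 1.75. For these 10 genes the limit to mouse rests on which rat probe set was brightest. The mouse side was uneven too. Of 40 genes of the class with several tested mouse probe sets, 15 were called higher in bud by every one. Cdkn1a and Esrp2 were called by 1 of 2 mouse probe sets, and Tbx3 by 2 of 4.

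The mouse-limited mesenchyme genes included secreted factors. Gdnf was at 405 and 417 in mouse mesenchyme, 144 and 147 in stalk and 75.6 and 65.4 in tip. In rat it was at 274 and 282 in mesenchyme and 199 and 189 in bud. The tissues did not overlap in either species, but the differences were -1.86 (SE 0.09) and -0.48 (SE 0.12), and the rat value missed the threshold (adjusted p = 0.0546). The Wnt agonist Rspo3 differed by -2.99 and -0.40, the guidance factor Ntn1 by -2.37 and -0.51, and the growth factor Igf1 by -1.54 and -0.08. Igf1 was at 1351 to 1471 on all 4 rat arrays, with little split by tissue. In mouse it was called by 2 of its 4 tested probe sets. The muscle genes Tpm2 (-2.86 and -0.37) and Trim63 (-2.08 and 0.25), the secreted protein Nell1 (-1.73 and 0.71), the Cdc42 effector Cdc42ep3 (-1.69 and -0.48) and the poly(A) polymerase Tent5a (-1.60 and -0.02) were also in this class. Of 18 genes with another tested rat probe set, 3 were called in rat mesenchyme by it, namely Epas1, Pdgfra and Tpm2. The first rat design gave -2.77 for Tpm2 and -1.92 for Pdgfra. Of 25 genes with several tested mouse probe sets, 8 were called in mouse mesenchyme by every one. The genes Alcam, Aplnr, Ngfr and Pcdh8 had several tested probe sets in both species, all called in mouse and none in rat. That is a matter of the threshold for Aplnr. Its tested rat probe sets were at -0.91 (adjusted p 0.00427, limma), short of 2-fold, and -0.29. Alcam was at -0.07 and 0.02 on its tested rat probe sets, and at -1.20 and -0.07 on those below the filter.

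**Figure D4:**
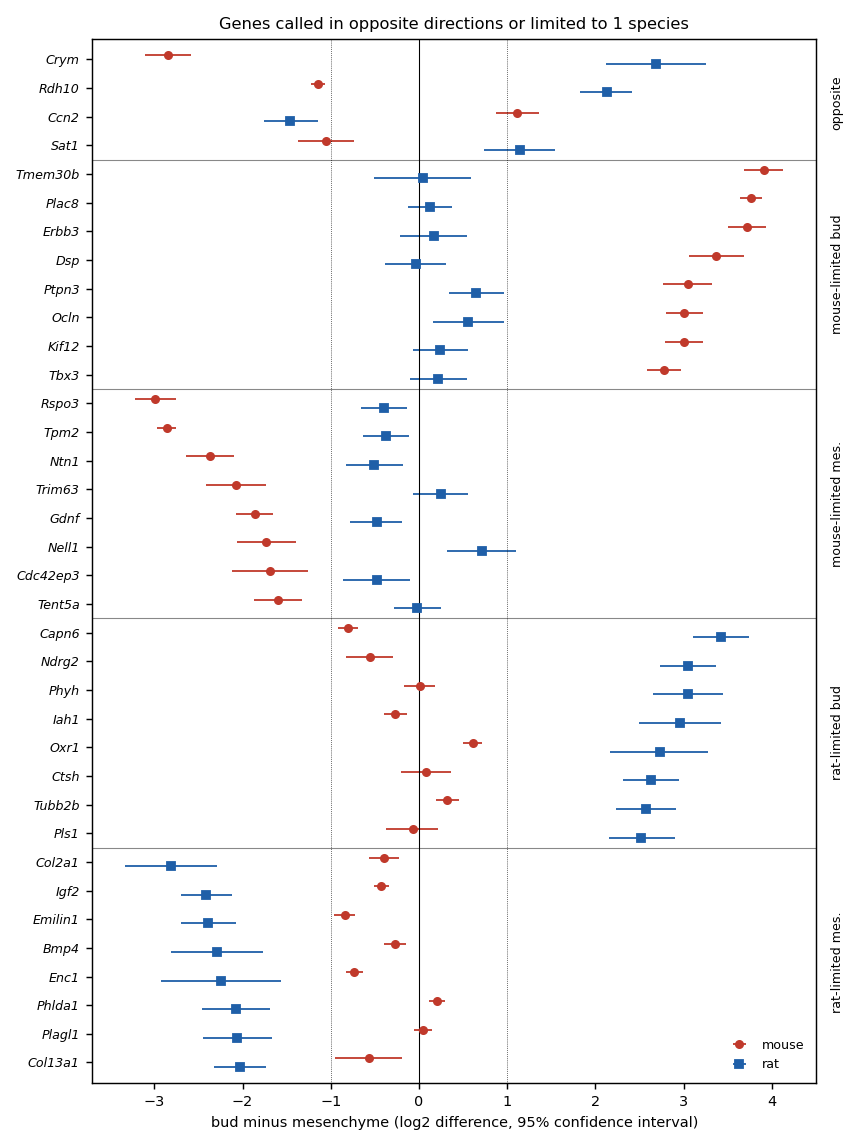
Log2 difference between bud and mesenchyme with its 95% confidence interval for the 4 genes called in opposite directions and the 8 of largest difference in each species-limited class, mouse as circles and rat as squares, with dotted lines at 2-fold. The class rule puts 1 species beyond 2-fold and keeps the interval of the other short of it in that direction. In each species-limited class 1 species thus lies beyond 2-fold and the other between the lines, apart from the upper end of the rat interval of Nell1, at 1.10.

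Among the rat-limited bud genes of largest difference was Phyh. Phyh, a peroxisomal enzyme that breaks down branched fatty acids, was at 1664 and 2223 in rat bud and 223 and 214 in rat mesenchyme. In mouse it was flat, at 203 to 278 over tip and stalk and 244 and 229 in mesenchyme. The differences were 3.05 and 0.01 in rat and mouse, and a second rat design gave 2.74. Capn6, a calpain without protease activity, was at 2468 and 2265 in rat bud against 214 and 197, a difference of 3.43, and at -0.80 in mouse. Both mouse probe sets of Capn6 were negative. The glutathione transferase Gstm1 rose in rat bud on all 3 of its probe sets (2.16, 2.17 and 2.81) and was at -0.13 to -0.22 on 4 mouse probe sets. Members of that gene family are near-identical in sequence, and their probe sets may not separate them. Other genes of this class were Ndrg2 (3.05 in rat and -0.56 in mouse, with a second rat design at 0.69), the esterase Iah1 (2.96 and -0.27), the lysosomal protease Ctsh (2.63 and 0.08), Oxr1 (2.73 and 0.61), Tubb2b (2.57 and 0.32) and the actin bundler Pls1 (2.52 and -0.07). The heparan sulfate genes Gpc6 (1.65 and -0.82), Gpc4 (1.38 and 0.24) and Glce (1.28 and 0.12) and the Hox genes Hoxb6 (1.67 and 0.67) and Hoxd9 (1.75 and 0.61) were also limited to rat bud. The class also held the neuronal growth cone gene Gap43 (1.56 and -0.51), the neuropeptide gene Npy (1.09 and -0.08) and the RET-family ligand gene Nrtn (2.15 and 0.11). The 4 neuronal and neural crest markers tested (Uchl1, Gap43, Elavl4 and Th) summed to 3228 to 3674 in rat bud against 1721 to 1725 in rat mesenchyme, and to 579 to 697 in mouse tip, 457 to 459 in stalk and 492 to 541 in mesenchyme. In rat, Uchl1 (1.19, called by 1 of its 5 tested probe sets) and Gap43 were called and Elavl4 (0.08) and Th (0.02) were not. None was at 0 on any array, and the part of such cells in this class was not tested. Without the second rat bud labelling 76 of the 90 genes were still past 2-fold on the bud side in rat.

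Another tested mouse probe set was present for 46 of the 90 genes, and for 2 of them, Phactr1 and Phip, it was called higher in mouse bud. Further rat probe sets were less uniform. Of 35 rat-limited bud genes with several tested rat probe sets, 8 were called higher in bud by every one. Of 22 shared bud genes with several, 9 were.

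The rat-limited mesenchyme genes included 3 imprinted genes. Of 13 imprinted genes, mouse called Dlk1 (-1.54 and -0.48 in mouse and rat) and Meg3 (-1.26 and -0.47), and rat called Cdkn1c (-0.92 and -2.57), Nnat (-0.64 and -1.77), Igf2 (-0.43 and -2.41) and Plagl1 (0.05 and -2.06), with 0 called in both and 9 of 13 alike in sign, where 52 of all 6381 genes were shared in mesenchyme and 58.4% were alike in sign. Meg3 was called by 2 of its 9 tested mouse probe sets. Plagl1, a zinc finger factor, was at 2283 and 1868 in rat mesenchyme and 440 and 533 in rat bud, and at 5023 to 6276 over the 6 mouse arrays. Both rat probe sets fell in bud (-2.06 and -2.89), and the mouse ones were at 0.05 and 0.15. Igf2, the fetal growth factor, was at 6048 and 6026 in rat mesenchyme and 1066 and 1182 in rat bud, while its 3 other tested rat probe sets were at -0.35, 0.09 and -0.02. Cartilage-type collagen Col2a1 differed by -2.81 in rat and -0.40 in mouse, Emilin1 by -2.39 and -0.84, Col13a1 by -2.03 and -0.57, and Phlda1 by -2.07 and 0.20. Enc1, an actin-associated protein, fell in rat bud on both its probe sets (-2.25 and -1.53) and was at -0.74 in mouse.

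Several genes of this class were low in mouse tip and not in stalk. Bmp4 was at 174 and 190 in mouse tip, 1033 and 1046 in stalk and 540 and 532 in mesenchyme, and at 13.8 and 20.9 in rat bud and 125 and 170 in rat mesenchyme. The rat difference was -2.29. It was measured on design C, where the median that set the filter was 115, so that rat mesenchyme alone passed it. Another rat probe set of Bmp4 was under the filter, at -0.73. The mouse tip differed by -1.48 and the mouse stalk by 0.93, and their mean was -0.27. Sfrp2, a Wnt inhibitor, had -1.42 in tip and 1.01 in stalk beside -1.87 in rat, and Tcf21, a stromal factor, had -2.06 and 0.49 beside -1.76. Of the 56 genes, 20 were called lower in tip than mesenchyme (background 4.26% of probe sets) and 0 lower in stalk (background 0.426%). The medians were -0.76 and 0.03, and the stalk background leaves few calls to be seen in 56 genes. When mouse tip alone stood for the bud, 29 of the 56 kept the class, and the shared mesenchyme class grew from 52 to 93 genes. The stromal sums given above were near the mesenchyme sum in mouse stalk and below it in rat bud. The stromal list holds 3 genes of this class, among them Bmp4, so its sums are not separate from the class. The part of stromal cells in this class was not tested.

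**Figure D5:**
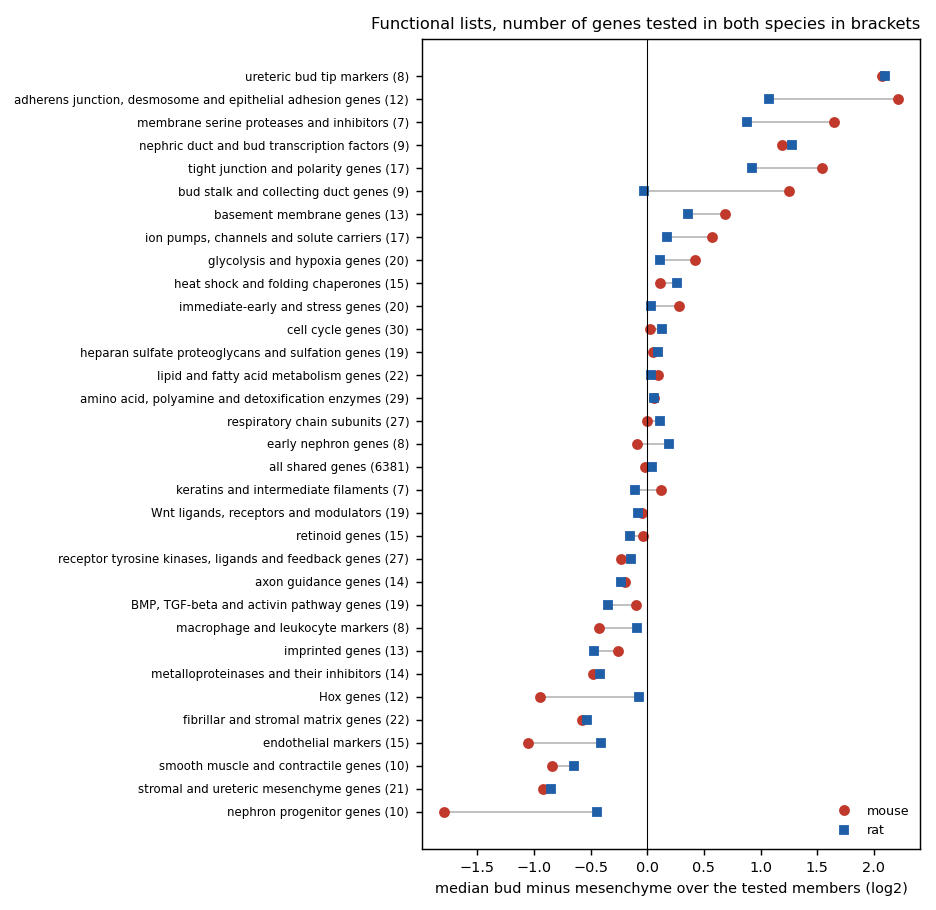
Median log2 difference between bud and mesenchyme for each functional list with at least 5 genes tested in both species, mouse as circles and rat as squares, with the number of genes in brackets. Tip marker, duct transcription factor and both junction lists have medians on the bud side in both species, and nephron progenitor, stromal, matrix and endothelial lists on the mesenchyme side; the collecting duct list has 1.25 in mouse and -0.03 in rat.

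Signalling lists were mixed. Of 27 receptor tyrosine kinase, ligand and feedback genes, mouse called 7 higher in bud and 4 in mesenchyme, and rat 4 and 4. Ret, Gfra1, Spry1 and Igfbp2 (1.78 and 2.92) were shared in bud and 0 were shared in mesenchyme. Of 19 Wnt genes, Wnt6, the receptor Fzd6 (2.18 and 1.24) and the inhibitor Frzb (-1.20 and -2.04) were shared. Wnt9b, the bud ligand that starts nephron formation, was at 563 to 577 in mouse tip, 382 and 399 in stalk and 43.4 and 78 in mesenchyme, a difference of 2.71. Rat values were 301 and 306 in bud and 181 and 144 in mesenchyme, a difference of 0.85 that was not called. Of 12 Hox genes, Hoxd8 was shared in bud (1.63 and 1.41) and Hoxa11, Hoxd10 and Hoxa5 in mesenchyme, while Hoxc5 was called in mouse mesenchyme (-1.05) and was at 0.86 in rat.

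Of 27 respiratory chain subunits neither species called any (medians 0.00 and 0.11), and of 30 cell cycle genes mouse called 1 and rat 2, with none shared, against backgrounds of 3.12% for bud and 1.93% and 2.07% for mesenchyme that leave few calls to be seen in lists of this size. Of 20 immediate-early and stress genes, mouse called 2 higher in bud and 1 in mesenchyme and rat called 5 and 0, and the growth factor Ccn1 (1.12 and 1.35) and Klf6 (1.07 and 1.33) were shared.

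Not every mouse call could be asked of rat. Of 471 mouse-called genes among the 9820, 149 (31.6%) were under the rat filter, whereas 12 of 343 rat-called genes (3.5%) were under the mouse filter. Over all shared genes, 1810 were tested in mouse alone and 516 in rat alone, beside 6381 in both. The rat filter thus left out more genes than the mouse filter whether or not they were called. Calb1, a marker of the bud, was one of the 149, with 6.63 in mouse, as was Itga8, an integrin of the mesenchyme, with -1.78.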

How the data were processed

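The deposited tables give linear-scale intensities, 1 for every array and probe set. How the authors scaled and summarised these intensities is not given in the sources used here. Arrays of a table were brought to the same quantiles, and log2(intensity + 16) was taken, which understates change at low signal, and control probe sets were dropped. A probe set was tested when a tissue mean reached the table median (49.3 in mouse; 111, 118 and 115 in rat). In mouse 23919 probe sets passed out of 45037, and on the rat designs 4616 out of 8740, 4657 out of 8732 and 4648 out of 8730. Linear models were fitted per table with limma 3.58.1 (lmFit, eBayes with trend) in R 4.3.3, and every adjusted p is from these fits or from the test between species, which divides the difference by its combined standard error, with Benjamini-Hochberg adjustment.

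Genes were named from platform annotation, with the brightest probe set of 1 symbol as representative, and for genes on several rat designs the design of highest intensity percentile. Named genes were the 12 of highest shared rank on each side, all opposite genes, the 8 largest in each species-limited class, and up to 4 per functional list, and list members going against the rest. Other genes named, including those listed for probe set support and genes given to spell out a list's calls, were picked after their values were seen, as was the printed promoter of Cldn7. Members and lists were chosen with earlier results of these data known. Depth does not apply to arrays; 2 labelings per pool limit the precision. Promoters came from RefSeq GRCr8. Alternatives are listed in the closing section.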

Additional observations from a re-analysis of the deposited data

Results flagged for a closer look

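The values here are mouse minus rat differences of the log2 contrast of bud over mesenchyme, each past the test of the difference between species (adjusted p from 4.95e-08 to 0.0186), which is what singled them out. The mouse and rat values behind them are given with each class, and species, stage and array design cannot be told apart in any of them.

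Among the genes called on opposite sides, Crym was at -5.54, Rdh10 at -3.28, Ccn2 at 2.57 and Sat1 at -2.19. Genes limited to mouse bud were Tmem30b at 3.87, Plac8 at 3.65, Erbb3 at 3.55, Dsp at 3.41, Kif12 at 2.76, Tbx3 at 2.55, Ocln at 2.45 and Ptpn3 at 2.40. Another rat probe set was called higher in bud for Dsp, Kif12 and Ptpn3. Genes limited to mouse mesenchyme were Rspo3 at -2.59, Tpm2 at -2.49, Nell1 at -2.44, Trim63 at -2.32, Ntn1 at -1.87, Tent5a at -1.58, Gdnf at -1.37 and Cdc42ep3 at -1.21. Another rat probe set of Tpm2 was called in rat mesenchyme, at -2.77, so this difference rests on the probe set taken.

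Genes limited to rat bud were Capn6 at -4.23, Ndrg2 at -3.61, Iah1 at -3.23, Phyh at -3.04, Pls1 at -2.60, Ctsh at -2.55, Tubb2b at -2.25 and Oxr1 at -2.12. Genes limited to rat mesenchyme were Col2a1 at 2.41, Phlda1 at 2.27, Plagl1 at 2.10, Bmp4 at 2.02, Igf2 at 1.98, Emilin1 at 1.55, Enc1 at 1.51 and Col13a1 at 1.46. Bmp4 passed the rat filter through mesenchyme alone. The other 3 tested rat probe sets of Igf2 were at -0.35, 0.09 and -0.02.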

How the results depend on the processing

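Of 360 recomputed counts and correlations, 290 stayed within 1.5 times the reported count or within the spread of the correlations, and 70 moved. For named genes 7196 values kept direction and call, 114 lost the call, 174 gained one and 4 turned sign. The 4 were Dsp in rat at 1.64 with the mean of all probe sets, and, against mouse stalk alone, Col1a1 at 0.16, Col3a1 at 0.14 and Vcan at 0.51. The 1.5-fold and adjusted p alone settings, the filters and the tip or stalk choices change a count by their own construction. For the others the cause was not tested.

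With a pseudocount of 64 mouse called 658 probe sets and rat design B 172, opposite genes were 2 and mouse-limited mesenchyme genes 29. With no filter mouse-limited genes were 153 in bud and 99 in mesenchyme, the correlation 0.30 and the same-sign share 57.2%. With a filter at the 75th percentile design B called 176, opposite-sign genes in the test between species were 281, mouse-limited genes 21 and 17, and rat-limited bud genes 57. With the mean over rat designs, over genes on 1 design, mouse-limited bud genes were 51. At 1.5-fold the probe sets called were 2381 in mouse and 509, 615 and 452 in rat, shared genes 172 in bud and 131 in mesenchyme, opposite genes 14, mouse-limited 137 and 109, rat-limited 214 and 90, and shared bud genes higher in tip 100. With adjusted p alone they were 5991, 539, 810 and 521, shared genes 282 and 218, opposite 60, mouse-limited 192 and 205, rat-limited bud 191 and shared bud genes higher in tip 203.

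With mouse tip alone as the bud, mouse called 1953, shared mesenchyme genes were 93, opposite 7, mouse-limited mesenchyme 149, rat-limited mesenchyme 29 and the same-sign share 60%. With stalk alone mouse called 663, shared mesenchyme genes were 11, mouse-limited mesenchyme 10, rat-limited mesenchyme 111, the correlation 0.20, the same-sign share 53.8% and shared bud genes higher in tip 19. Same-numbered labelings deviated together at r of 0.42 to 0.57 in mouse and 0.22 to 0.31 in rat, but the labels give no pairing and there are only 2 numbers. With the replicate block opposite-sign genes in the test between species were 876, and no other count moved by over 1.5 times.

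Leaving out 1 labelling at a time gave 1104 to 1151 probe sets called in mouse and 243 to 477, 228 to 369 and 77 to 360 on the rat designs. Shared bud genes ranged from 74 to 94, shared mesenchyme genes from 42 to 54, opposite genes from 2 to 5, opposite-sign genes from 139 to 1128, mouse-limited genes from 55 to 85 and 29 to 53, and rat-limited genes from 55 to 142 and 25 to 121. The correlation ranged from 0.31 to 0.37, the same-sign share from 57.1% to 59.7%, and shared bud genes higher in tip from 26 to 35. Having 2 labelings of 1 pool for each tissue limits the precision, and probe sets below the filter were not compared.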
